A study of Macaca mulatta with 30 samples.

Results

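The enzymes described here attach polar groups to drugs, hormones and food compounds or remove reactive alcohols, aldehydes and ketones. They were chosen by name: every gene of the deposited table called UGT1 to UGT3, SULT1 to SULT6, GST of 7 letter classes, MGST1 to MGST3, ADH1 to ADH7, ALDH or AKR1 to AKR7, kept if the mean of at least 1 tissue reached 1 TPM. TPM, a transcript abundance unit, is an RNA level corrected for transcript length and scaled to a fixed total per library, so levels of different genes can be compared with each other. Of 21292 genes in the table, 68 names matched and 63 reached that mean. GSTM1, SULT1E1, SULT4A1, SULT6B1 and UGT3A2 stayed below it in all 5 tissues. The 63 members comprise 6 UGT, 5 SULT, 18 GST (MGST1 to MGST3 included), 6 ADH, 19 ALDH and 9 AKR genes.

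RNA was sequenced from flash-frozen liver, pancreas, and parotid, submandibular and sublingual salivary glands of 6 rhesus macaques (Macaca mulatta), 1 library per tissue and animal. Animals 1 to 4 were female and animals 5 and 6 male. The labels give no treatment, genotype, age or batch. Each group is 1 tissue with 6 animals, and the same animals recur in every group.

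Detoxification is commonly described in steps. A first set of enzymes oxidises, reduces or hydrolyses a compound, and conjugating enzymes then attach glucuronic acid (UGT), sulfate (SULT) or glutathione (GST), so that the product dissolves in water and leaves in bile or urine. Alcohol dehydrogenases (ADH) turn alcohols into aldehydes, aldehyde dehydrogenases (ALDH) turn aldehydes into acids, and aldo-keto reductases (AKR) reduce aldehydes and ketones, steroids among them. Hepatocytes are the classical site of all these steps, while several members of the same families also act in amino acid, folate, retinoid and steroid metabolism in other tissues.

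Several libraries stood apart from others of their tissue. Fits were repeated without 5 of them: pancreas and submandibular gland of animal 4, parotid of animal 6, and sublingual gland of animals 1 and 4. The others described below were left out only together with their whole animal. Means and shares of the liver mean use all libraries unless stated. The 30 libraries had between 11.1 and 81.4% of all TPM in their 10 most abundant genes, with 73.4 to 81.4% in 5 of 6 parotid libraries and 20.3 to 27.4% in liver, and depth is unknown in a TPM table. Because each library sums to a fixed total, a tissue that makes much of a few secreted proteins lists lower values for all other genes. Hepatocyte markers (10 genes) summed to 92765 to 140131 TPM in liver and to at most 5153 TPM elsewhere. Acinar markers (8 genes) summed to 133185 to 299889 TPM in 5 pancreas libraries and to 3182 TPM in that of animal 4, and serous markers (5 genes) to 199644 to 295899 TPM in 5 submandibular libraries and to 1504 TPM in that of animal 4. Adipocyte markers (6 genes) summed to 18013 and 7840 TPM in those 2 libraries of animal 4 and never exceeded 1700 TPM in the other 28. Skeletal muscle markers (7 genes) summed to 78752 TPM in the parotid library of animal 6, to 23413 and 7526 TPM in the sublingual libraries of animals 5 and 1, to 5791 TPM in the parotid library of animal 1 and to at most 817 TPM elsewhere. Among pancreas libraries, islet markers (5 genes) summed to 132626 TPM for animal 3 and never exceeded 12702 TPM for the others. Genes of squamous epithelium (8 genes, a list made after the data had been seen) summed to 37772 and 112406 TPM in the sublingual libraries of animals 1 and 4 and to at most 585 TPM in the other 28.

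In liver the 63 members together took 18241 ± 5563 TPM (mean ± SD, n = 6), against 3063 ± 2185 TPM in sublingual gland, 2084 ± 1840 TPM in pancreas, 1482 ± 2117 TPM in submandibular gland and 754 ± 273 TPM in parotid. The lowest liver library held 10978 TPM of these genes and the highest library of any other tissue 6098 TPM, so liver did not overlap with the other 4 tissues. Outside liver the highest sums came from the libraries that stood apart: 6098 and 5646 TPM in the sublingual libraries of animals 1 and 4, 5762 TPM in the pancreas and 5799 TPM in the submandibular library of animal 4. The mean was highest in liver for 47 members, in sublingual gland for 12, in submandibular gland for 2 and in pancreas and parotid for 1 each. The submandibular 2, GSTA4 and ALDH1A2, were at 39.1 and 7.41 TPM in animal 4. The other submandibular libraries reached 12.3 and 0.376 TPM. GSTA4 had a submandibular median of 7.58 TPM against 11.2 TPM in parotid, and ALDH1A2 met the 1 TPM rule only through animal 4. A mean of at least 100 TPM was reached by 29 members in liver, 6 in pancreas, 5 in sublingual gland, 3 in submandibular gland and 1, GSTP1, in parotid. These means include the libraries that stood apart, and outside liver the medians of several of these members were below 100 TPM. They were 96.0, 64.7 and 20.0 TPM for GSTP1, GSTM5 and MGST1 in submandibular gland. In pancreas they were 63.7, 81.9 and 28.4 TPM for ADH1B, AKR1C1 and MGST1, and in sublingual gland 63.5 TPM for ALDH3A1.

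**Figure D1:**
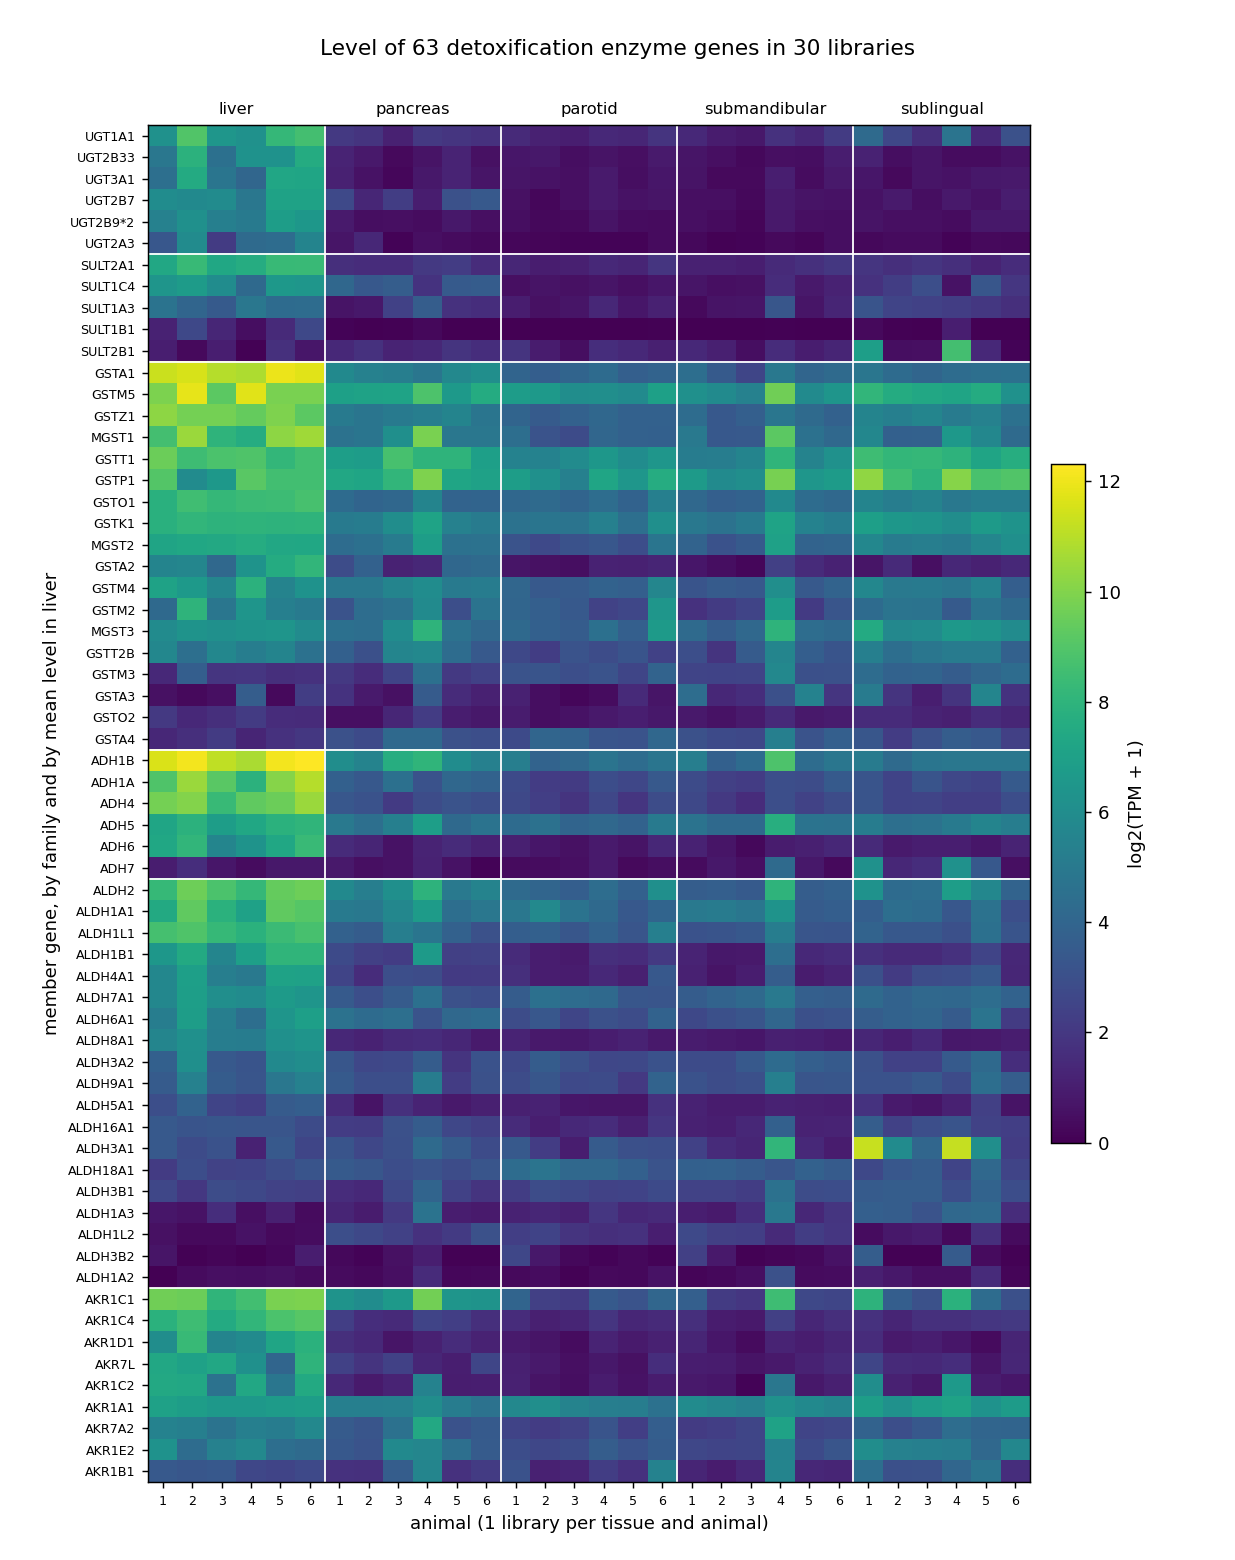
Level of the 63 members in each of the 30 libraries, as log2(TPM + 1), with genes in rows ordered by family and libraries in columns ordered by tissue and animal. Bright cells are high levels. The liver mean is the highest of the 5 tissues for 47 members, and the pancreas and submandibular libraries of animal 4 and the sublingual libraries of animals 1 and 4 hold members at levels not seen in the other libraries of their tissue.

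The members were then compared between liver and each other tissue in a linear model (limma, log2(TPM + 1), tissue and animal as terms, 13550 genes tested). The model tested 61 members. ALDH1A2 and ALDH3B2 did not reach 1 TPM in 6 libraries and have no test. Against pancreas, 42 members were higher in liver and 2 lower, where 23.6% of all genes tested were higher and 6.76% lower. Against sublingual gland, 40 members were higher and 7 lower, beside 18.7% and 12.8% of all genes. Against parotid, 50 were higher and 4 lower, beside 53.4% and 4.61%. Against submandibular gland, 48 were higher and 6 lower, beside 45.1% and 5.68%. The median log2 fold change of the members was 2.44, 2.21, 3.36 and 3.12 against pancreas, sublingual gland, parotid and submandibular gland, and that of all genes 0.36, 0.10, 0.84 and 0.70. With trimmed-mean scaling, which brought the medians of all genes to between -0.01 and 0.04, the members' medians were 1.96, 2.04, 2.55 and 2.15, and 40, 40, 43 and 44 members were higher. In that scaling 20.9, 23.6, 25.1 and 25.6% of all genes were higher in liver. In bulk tissue, fewer cells of a type and less RNA per cell cannot be told apart.

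**Figure D2:**
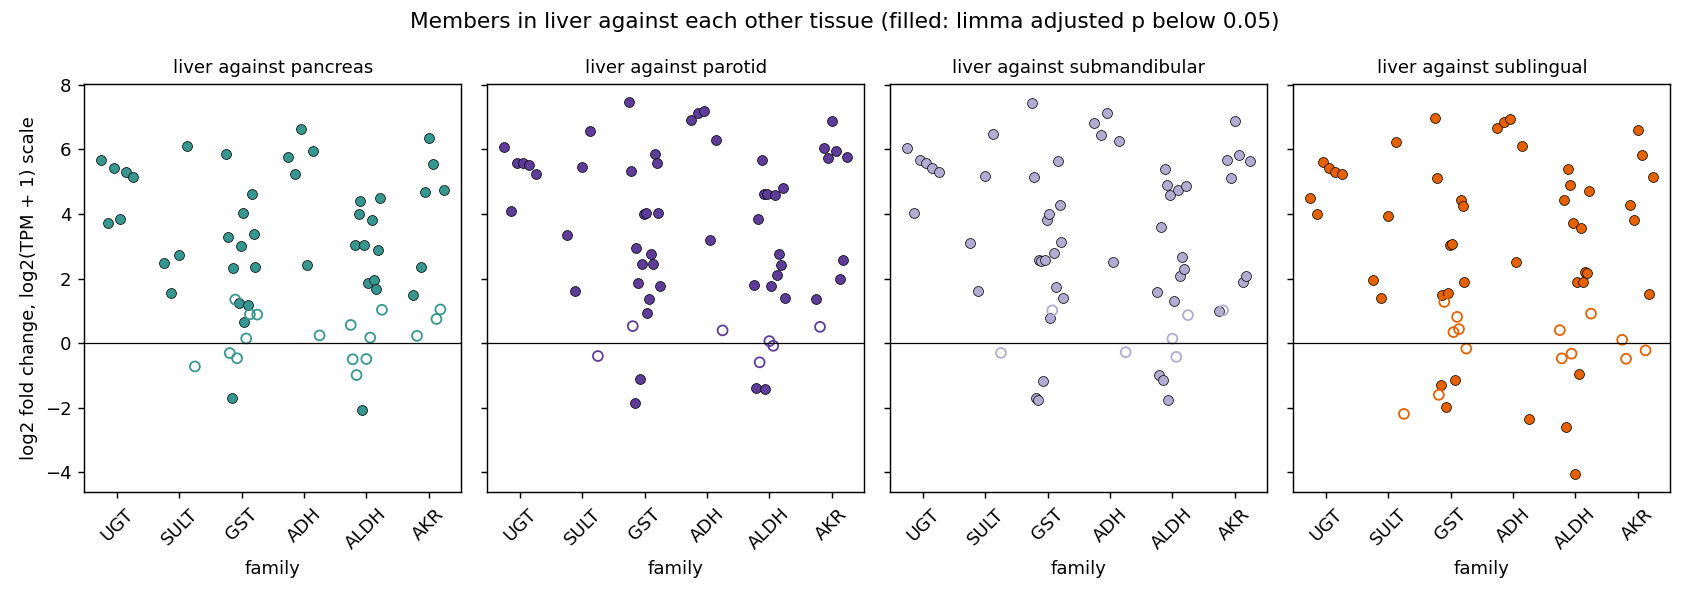
Log2 fold change of each tested member in liver against each of the other 4 tissues, on the log2(TPM + 1) scale, 1 point per member, with members past a limma adjusted p of 0.05 filled. Most points of each family lie above 0, and all 6 UGT members do in all 4 comparisons.

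Higher in liver than in all 4 other tissues were 39 members, 34 of them in 6 of 6 animals each time. Joint counts over several tissues were not worked out for all genes. At most 18.7% of all genes, the share higher in liver than in sublingual gland, can be higher than in all 4. GSTA4 was lower in liver than in all 4. In all, 10 members were lower in liver than in at least 1 tissue: ADH7, ALDH18A1, ALDH1A3, ALDH1L2, ALDH3A1, ALDH3B1, GSTA3, GSTA4, GSTM3 and GSTP1. Against submandibular gland, GSTM3 (-1.17) and ALDH1A3 (-1.14) were no longer called without the 3 libraries that stood apart in pancreas, submandibular gland and parotid (-0.63, limma adjusted p = 0.0686, and -0.62, adjusted p = 0.1). Leaving out any 1 animal kept 3 to 4 members lower in liver than in submandibular gland. GSTA3, lower in liver only against this gland, was higher in liver in animals 4 (11.4 against 6.97 TPM) and 6 (3.68 against 2.79 TPM). AKR1B1 and SULT2B1 passed the threshold in none of the 10 tissue pairs. Many members lie next to close relatives in the RefSeq gene order (GSTM3, GSTM5, GSTM2 and GSTM4, GSTA3, GSTA1 and GSTA2, ADH6, ADH1A and ADH1B, UGT2A3, UGT2B33 and UGT2B9*2, AKR1C1, AKR1C2 and AKR1C4). Reads shared by such relatives may be divided among them in an unstated way, so the value of a single one is less certain than that of its group.

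The glucuronosyltransferases, which attach glucuronic acid to bilirubin, bile acids, steroids and drugs, were the family with every member higher in liver. All 6 of 6 passed in each comparison, with a median log2 fold change between 5.22 and 5.54. UGT1A1, the enzyme that conjugates bilirubin, had a lowest, median and highest level of 73.7, 189 and 499 TPM in liver, 1.22, 2.70 and 3.07 TPM in pancreas, 1.06, 1.60 and 2.59 TPM in parotid, 0.742, 1.61 and 3.43 TPM in the submandibular gland, and 1.66, 6.22 and 25.4 TPM in sublingual gland. Liver did not overlap with any other tissue for this gene, and the 2 highest sublingual values, 17.9 and 25.4 TPM, were those of animals 1 and 4. UGT1A1 is the only name of the UGT1A locus in the table, and whether its value includes transcripts from the other first exons of that locus is not given in the sources used here. Its log2 fold change was 5.67 against pancreas (SE 0.47, limma adjusted p = 1.62e-10, higher in 6 of 6 animals). UGT2B33, a macaque member of the steroid and drug conjugating 2B group, ranged from 22.0 to 236 TPM in liver and was at most 1.34 TPM in any other library. UGT3A1, which transfers N-acetylglucosamine, ranged from 15.9 to 181 TPM in liver and was likewise at most 1.32 TPM elsewhere. UGT2B7, which conjugates morphine and steroids, had the highest mean of the family in pancreas, with a median of 4.67 TPM there against 0.663 TPM in sublingual gland.

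Of the 5 sulfotransferases, 4 were higher in liver in each comparison. SULT2A1, which sulfates bile acids and DHEA, took 71.5% of the family's liver total. Its lowest, median and highest level was 159, 256 and 326 TPM in liver, and its highest level was 3.54 TPM in pancreas, 2.71 TPM in parotid, and 2.77 and 2.95 TPM in sublingual and submandibular gland, so that the groups did not overlap. The log2 fold change ran from 6.11 against pancreas (SE 0.24, limma adjusted p = 3.26e-17) to 6.56 against parotid. SULT1C4 showed an order of its own: 86.0 TPM in liver, 10.6 TPM in pancreas, 3.31 TPM in sublingual gland, 0.719 TPM in submandibular gland and 0.514 TPM in parotid (medians). It was higher in liver than in pancreas (2.73, SE 0.38, limma adjusted p = 1.86e-06) and lower in each gland than in pancreas. The sublingual call was lost without the sublingual libraries of animals 1 and 4 (-0.83, limma adjusted p = 0.245) and without the animal term (adjusted p = 0.0563). In animal 4, SULT1C4 was at 17.4 TPM in liver and 2.44 TPM in pancreas, below the other 5 libraries of each tissue, which started at 62.4 and 9.62 TPM. SULT2B1, which sulfates cholesterol and is known from skin, is described with the sublingual gland.

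The glutathione transferases carried the largest summed level of any family in liver, 8175 ± 1877 TPM (SD, n = 6). GSTA1, an abundant glutathione transferase and bilirubin-binding protein of liver, made up 34.2% of it. GSTA1 had a lowest, median and highest level of 1783, 2775 and 3960 TPM in liver and of 27.8, 47.4 and 66.2 TPM in pancreas, and no parotid, submandibular or sublingual library exceeded 29.1 TPM. Its log2 fold change was 5.85 against pancreas (SE 0.29, limma adjusted p = 2.57e-15) and 7.46 against parotid, higher in 6 of 6 animals. GSTZ1, the maleylacetoacetate isomerase of tyrosine breakdown, stood at 595, 846 and 1177 TPM in liver (lowest, median, highest) and at most 47.1 TPM elsewhere. GSTM5 varied widely between livers. It was at 3762 and 3478 TPM in animals 2 and 4 and at 584 to 945 TPM in the other 4. Its neighbour GSTM2 was also highest in those 2 livers, at 254 and 84.4 TPM against 17.7 to 39.2 TPM. GSTM5 still passed against all 4 tissues, with log2 fold changes of 3.00 to 4.00. Of the 18 members, 11 were higher in liver than in pancreas and 1 lower, 15 higher than in parotid and 2 lower, 14 higher than in submandibular gland and 3 lower, and 9 higher than in sublingual gland and 3 lower.

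GSTA4, the transferase with a preference for lipid peroxidation aldehydes such as hydroxynonenal, had the opposite order. It ranged from 1.45 to 3.36 TPM in liver, from 5.91 to 17.7 TPM in pancreas, from 5.77 to 16.6 TPM in parotid, from 5.46 to 39.1 TPM in submandibular gland and from 3.54 to 11.5 TPM in sublingual gland. Every liver library was below every library of the other 4 tissues. The log2 fold change of liver was -1.68 against pancreas (SE 0.37, limma adjusted p = 0.000826), -1.84 against parotid, -1.75 against submandibular gland and -1.29 against sublingual gland, lower in 6 of 6 animals each time. Without the sublingual libraries of animals 1 and 4 the last of these was -1.05, with a limma adjusted p of 0.0677.

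Among the alcohol dehydrogenases, ADH1A, ADH1B, ADH4, ADH5 and ADH6 were higher in liver in all 4 comparisons. ADH1B, an ethanol-oxidising enzyme, had the highest mean of all members in liver, 3502 ± 1352 TPM, and made up 61.9% of the family there. Its lowest, median and highest level was 1742, 3761 and 5089 TPM in liver, 40.0, 63.7 and 263 TPM in pancreas, 14.2, 22.5 and 37.3 TPM in parotid, 12.6, 23.6 and 462 TPM in the submandibular gland and 18.1, 28.5 and 33.5 TPM in sublingual gland. Liver did not overlap with the rest, and the highest pancreas and submandibular values were both from animal 4. The log2 fold change was 5.24 against pancreas (SE 0.55, limma adjusted p = 1.53e-08) and 6.87 against sublingual gland. ADH4, a further ethanol and retinol dehydrogenase, ranged from 311 to 1386 TPM in liver and was at most 9.01 TPM elsewhere. ADH5, which removes formaldehyde as its glutathione adduct in most cells, had the smallest difference of the 5, 2.44 to 3.21, and kept 10.4 to 27.3% of its liver mean in the other tissues. Over the 30 libraries the members most like ADH1B were ALDH1B1, ALDH1L1 and AKR1C4, with Pearson r of 0.957, 0.954 and 0.945. All 30 points share 5 tissues and 6 animals, so these values describe the difference between liver and the rest.

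Of 17 aldehyde dehydrogenases tested, 10 were higher in liver and 1 lower against pancreas, 12 higher and 2 lower against parotid, 11 higher and 3 lower against submandibular gland, and 10 higher and 3 lower against sublingual gland. ALDH2, the mitochondrial enzyme that oxidises acetaldehyde from ethanol, had the highest liver mean, 547 ± 225 TPM, with a lowest, median and highest level of 298, 566 and 784 TPM. In pancreas ALDH2 had 30.4, 49.9 and 245 TPM, and the log2 fold change of liver was 3.04 (SE 0.59, limma adjusted p = 0.000195, higher in 6 of 6 animals). ALDH1A1, which makes retinoic acid from retinal, ranged from 130 to 625 TPM in liver and reached 107 TPM in 1 pancreas library. ALDH1L1, a folate enzyme of the cytosol, ranged from 231 to 484 TPM in liver and was at most 39.1 TPM elsewhere.

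A set of 4 members with known roles in amino acid breakdown was picked for description after its values were seen. ALDH4A1 acts on proline, ALDH6A1 on valine, ALDH7A1 on lysine and ALDH8A1 on tryptophan products. All 4 were higher in liver in all 4 comparisons, with log2 fold changes of 1.67 to 4.87. ALDH18A1 and ALDH1L2, on a biosynthetic and a mitochondrial folate route, were low in liver. ALDH18A1, which starts proline synthesis, ranged from 3.39 to 8.15 TPM in liver and from 7.90 to 26.0 TPM in parotid, the tissue with its highest mean. The difference was -1.40 (SE 0.29, limma adjusted p = 0.000245, lower in liver in 5 of 6 animals). ALDH18A1 was the member higher in parotid than in pancreas (0.90, SE 0.29, limma adjusted p = 0.033). That call was lost without animal 1, 2, 3 or 5 and with only the 12 libraries of these 2 tissues. ALDH1L2, the mitochondrial counterpart of ALDH1L1, ranged from 0.243 to 0.519 TPM in liver and from 2.40 to 7.40 TPM in pancreas, without overlap (-2.07, SE 0.26, limma adjusted p = 3.67e-07, lower in 6 of 6 animals). ALDH1L2 was also higher in parotid and submandibular gland than in liver, and its sublingual median was 0.534 TPM.

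Of the 9 aldo-keto reductases, 8 were higher in liver than in parotid and in submandibular gland, and 6 than in pancreas and in sublingual gland. AKR1D1, the 5-beta reductase of bile acid and steroid metabolism, ranged from 46.4 to 318 TPM in liver and was at most 2.12 TPM elsewhere. AKR1C4, a liver hydroxysteroid dehydrogenase, ranged from 184 to 547 TPM in liver and was at most 4.82 TPM elsewhere, with a log2 fold change of 6.35 against pancreas (SE 0.26, limma adjusted p = 4.06e-17). AKR1C1, a progesterone-inactivating relative, had 261, 773 and 947 TPM in liver (lowest, median, highest), 63.4, 81.9 and 834 TPM in pancreas, 3.44, 9.12 and 15.8 TPM in parotid, 2.80, 5.22 and 358 TPM in the submandibular gland and 7.14, 15.5 and 246 TPM in sublingual gland. The highest pancreas and submandibular values were those of animal 4, and the pancreas one lay within the liver range. Liver exceeded pancreas by 2.35 (SE 0.72, limma adjusted p = 0.0135, 5 of 6 animals). Without the animal term AKR1C1 was no longer called (adjusted p = 0.0535), nor without animal 2, 5 or 6 (adjusted p of 0.0780, 0.0690 and 0.0518). AKR1C2 was at 24.2 and 27.1 TPM in the livers of animals 3 and 5 and at 167 to 177 TPM in the other 4, while AKR1C1 in the same 2 livers was at 261 and 908 TPM. AKR7L, a relative of the aflatoxin aldehyde reductase AKR7A2, was at 15.0 TPM in the liver of animal 5 and between 71.5 and 256 TPM in the other livers. AKR1A1, a widely expressed aldehyde reductase, was at 74.2 to 135 TPM in sublingual gland and 95.2 to 131 TPM in liver, and that difference was not past the threshold (0.11, SE 0.25, limma adjusted p = 0.795).

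The level that liver genes keep in the other tissues was set beside that of hepatocyte markers. For 9 markers, among them ALB, APOA1 and CYP2E1, the mean was 0.714 to 1.16% of the liver mean in pancreas, 0.405 to 0.836% in parotid, 0.425 to 0.820% in submandibular gland and 0.617 to 1.08% in sublingual gland. TTR, which islet cells also make, was left out of these ranges after its values were seen, at 11.8% in pancreas. Of the 37 members with a liver mean of at least 50 TPM that were highest in liver, 9 were at or below the highest marker in pancreas, 12 in sublingual gland, 17 in parotid and 13 in submandibular gland. In all 4 tissues together this held for 8 members: ADH4, ADH6, AKR1C4, AKR1D1, SULT2A1, UGT2B33, UGT2B9*2 and UGT3A1. The source of their low values outside liver was not tested. The median of the 37 members was 6.23% of the liver level in pancreas, 4.21% in sublingual gland, 2.85% in submandibular gland and 1.39% in parotid.

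**Figure D3:**
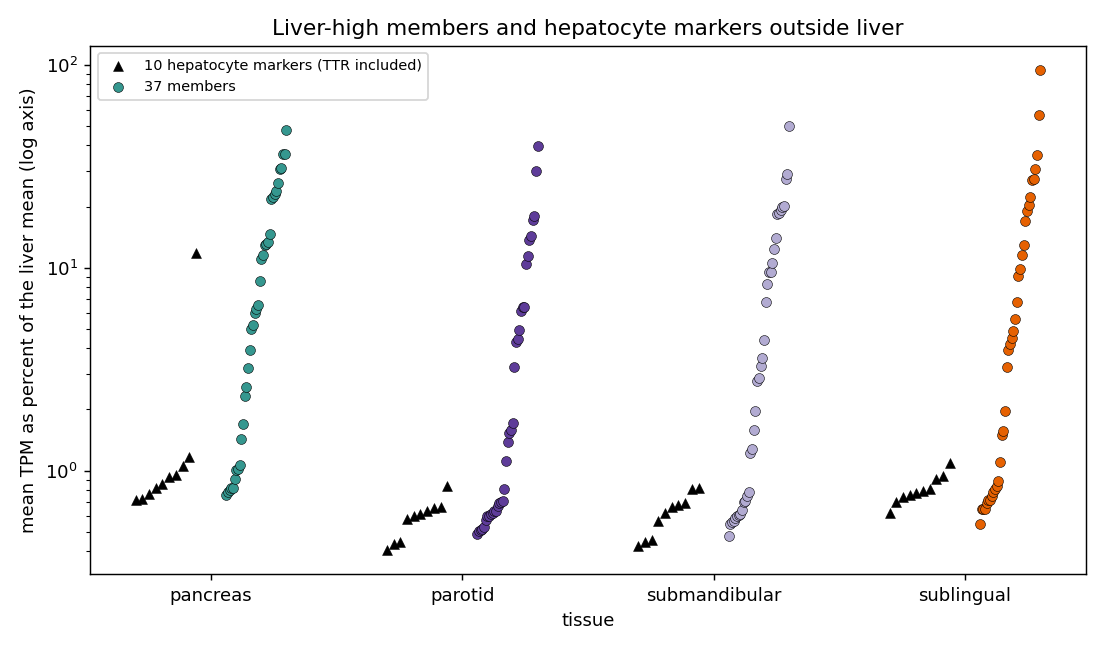
Mean level in each tissue outside liver as a percentage of the liver mean, on a log axis, for 37 members with a liver mean of at least 50 TPM (circles) and for 10 hepatocyte markers (triangles, TTR included). Between 9 and 17 members per tissue lie at or below the highest marker other than TTR, which stood at 1.16% in pancreas. The means include the libraries that stood apart.

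The sublingual gland held the highest mean of 12 members: ADH7, AKR1B1, AKR1E2, ALDH1A3, ALDH3A1, ALDH3B1, ALDH3B2, GSTA3, GSTM3, GSTP1, MGST3 and SULT2B1. Without the libraries of animals 1 and 4, the sublingual mean was still the highest for 5 of these, ALDH1A3, ALDH3B1, GSTA3, GSTM3 and GSTP1, and not for the other 7. All libraries of the other tissues were kept in this ranking. ALDH3A1 (36.6 TPM) and ADH7 (3.40 TPM) then ranked below submandibular gland, at 46.9 and 3.42 TPM. Those submandibular means include animal 4 at 271 and 18.1 TPM, next to at most 4.20 and 0.725 TPM in the other libraries. ALDH3A1, an aldehyde dehydrogenase abundant in cornea and other squamous epithelia, was at 2473, 60.2, 15.8, 2368, 66.7 and 3.54 TPM in the sublingual libraries of animals 1 to 6. ADH7, the class IV alcohol and retinol dehydrogenase of upper digestive tract lining, was at 72.8, 1.62, 2.02, 73.1, 9.53 and 0.443 TPM. SULT2B1 was at 120, 0.373, 0.398, 399, 1.71 and 0.0835 TPM. ALDH3B2 was at 11.3, 0.0382, 0.0425, 10.4, 0.303 and 0.0346 TPM. In each of these 4 genes the libraries of animals 1 and 4 were the highest of the 6. ALDH3A1 in animals 2 and 5 was also above every liver, pancreas and parotid library, of which the highest was 18.3 TPM. ADH7 in animal 5 was likewise above those libraries, which reached 2.04 TPM.

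The same 2 libraries were high in genes of stratified squamous epithelium, the lining of mouth and skin. KRT13, a keratin of that lining, was at 10694 and 34537 TPM there and at 0.778 to 130 TPM in the other 4 sublingual libraries. SPRR3, a protein of its outer layer, was at 14720 and 38847 TPM against 0.662 to 136 TPM. All 8 genes of the squamous list were higher in both libraries than in each of the other 4. The mucous markers of the gland (5 genes) summed to 33087 and 3151 TPM in animals 1 and 4 and to 163075 to 353911 TPM in the other 4. AKR1C1 (246 and 230 TPM against 7.14 to 19.2 TPM), AKR1C2 (64.8 and 95.7 TPM against 0.689 to 1.20 TPM), GSTP1 (1225 and 1071 TPM against 249 to 505 TPM) and UGT1A1 (17.9 and 25.4 TPM against 1.66 to 7.38 TPM) were also highest in these 2 libraries. Over all 30 libraries the members most like ALDH3A1 were ADH7, SULT2B1 and ALDH1A3, with Pearson r of 0.939, 0.816 and 0.751, values that rest on a few high libraries. The part of squamous cells in these levels was not tested.

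**Figure D4:**
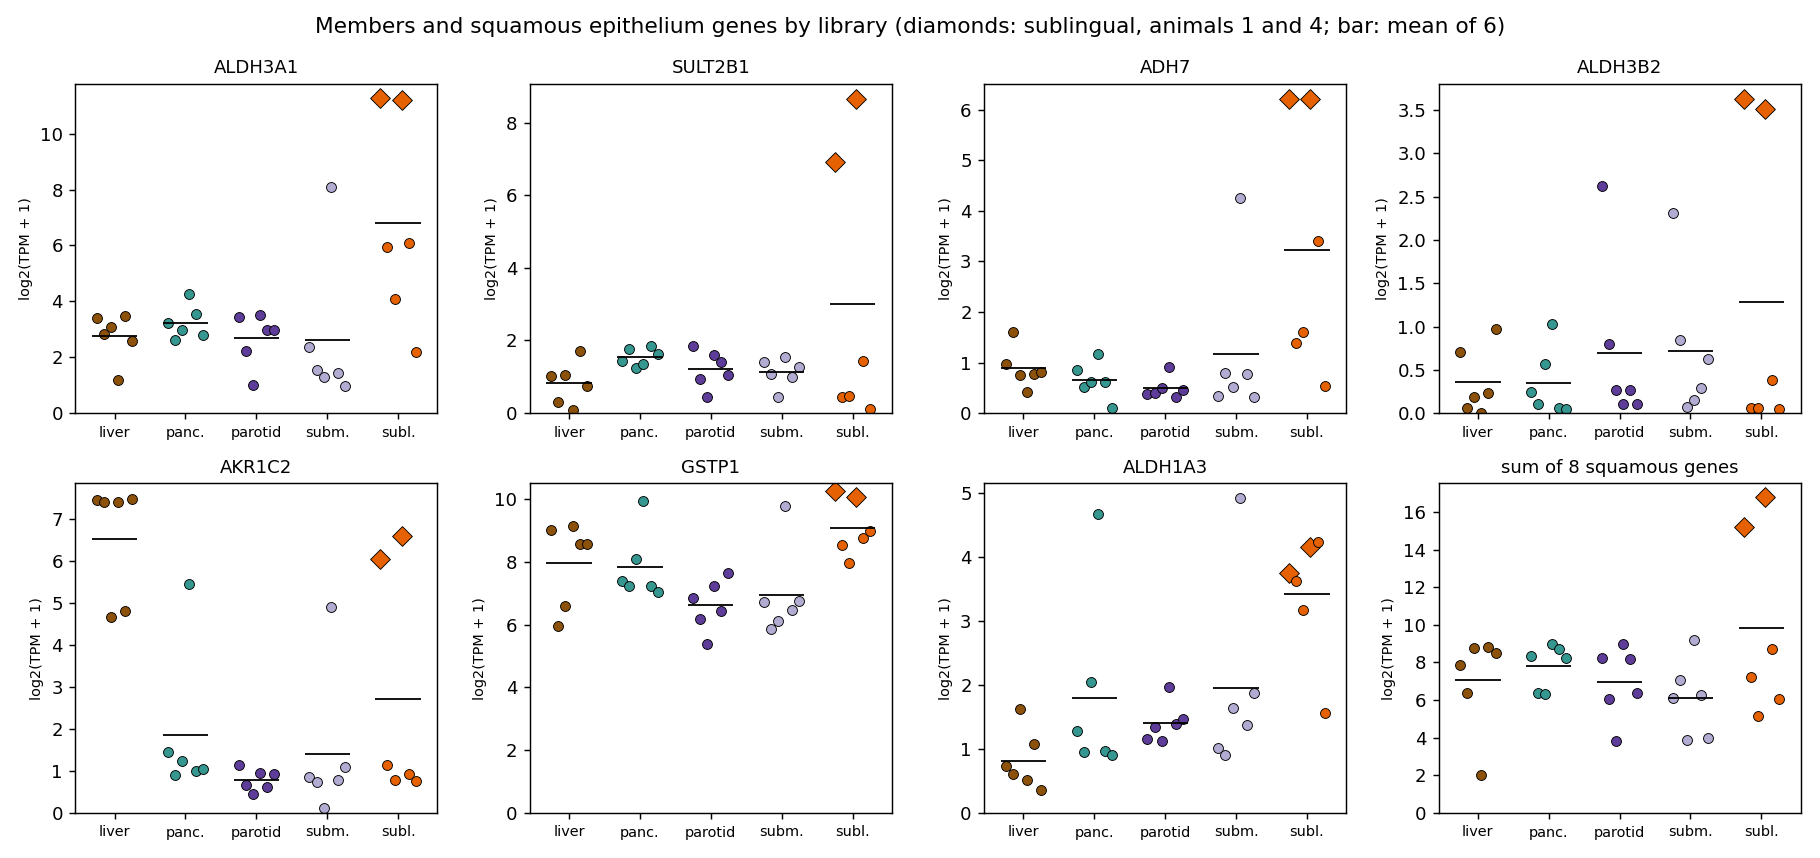
Log2(TPM + 1) in each library for ALDH3A1, SULT2B1, ADH7, ALDH3B2, AKR1C2, GSTP1, ALDH1A3 and the sum of 8 squamous epithelium genes, with 1 point per animal, a bar for the mean of 6, and diamonds for the sublingual libraries of animals 1 and 4. All but ALDH1A3 are higher in those 2 sublingual libraries than in the other 4, as the squamous sum is, at 37772 and 112406 TPM.

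With all libraries, liver was lower than sublingual gland in ALDH3A1 (-4.04, SE 0.98, limma adjusted p = 0.00206, 5 of 6 animals) and ADH7 (-2.33, SE 0.63, limma adjusted p = 0.00516, 4 of 6 animals), and SULT2B1 was at -2.19 (limma adjusted p = 0.0573). Without the sublingual libraries of animals 1 and 4, the difference was -2.25 for ALDH3A1 (limma adjusted p = 0.0646), -1.02 for ADH7 (adjusted p = 0.142) and 0.14 for SULT2B1 (adjusted p = 0.775), so that both calls were lost and SULT2B1 turned in direction. In this setting 3 members in place of 7 were lower in liver than in sublingual gland, and 39 in place of 40 higher, beside 12% and 15.9% of all genes.

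The other 8 members highest in sublingual gland depended on those 2 libraries to different degrees. ALDH1A3, a retinoic acid producing enzyme, was at 12.4, 11.3, 8.02, 16.7, 17.9 and 1.96 TPM in the sublingual libraries and at 0.280 to 2.07 TPM in liver. The difference was -2.60 (SE 0.48, limma adjusted p = 9.69e-05, lower in liver in 6 of 6 animals) and -2.60 without the 2 libraries (limma adjusted p = 0.000651). GSTM3 ranged from 11.0 to 19.6 TPM in sublingual gland, above all pancreas libraries but that of animal 4 and all liver libraries but that of animal 2. Its difference was -1.96 (SE 0.46, limma adjusted p = 0.00131) and -2.16 without the 2 libraries (adjusted p = 0.00151). GSTP1, the transferase of most epithelia, was higher in sublingual gland than in liver in 6 of 6 animals (-1.12, SE 0.43, limma adjusted p = 0.0491). The GSTP1 call was lost without the 2 libraries (-1.05, adjusted p = 0.124), without the animal term (adjusted p = 0.193), without the filter on low values (adjusted p = 0.0640), and without animal 1, 2, 3 or 5 (adjusted p of 0.0978, 0.246, 0.113 and 0.0571). ALDH3B1, which oxidises lipid aldehydes, ranged from 6.45 to 14.3 TPM in sublingual gland and from 3.00 to 6.30 TPM in liver, without overlap (-0.94, SE 0.35, limma adjusted p = 0.0417). That call was lost without the animal term (adjusted p = 0.0506) and without animal 1, 2, 3, 5 or 6 (adjusted p of 0.0655 to 0.165). AKR1E2, a sugar-derived carbonyl reductase (17.1 to 65.1 TPM), MGST3 (52.9 to 183 TPM) and AKR1B1, aldose reductase (2.08 to 25.4 TPM), overlapped with liver and passed no test against it. Without the 2 libraries the sublingual mean of AKR1E2 was 37.02 TPM against 38.3 TPM in liver, that of MGST3 63.7 against 72.3 TPM in liver, and that of AKR1B1 10.4 against 11.6 TPM in pancreas, so that none of these was highest in sublingual gland. The pancreas mean of AKR1B1 includes animal 4 at 47.9 TPM, next to 2.27 to 11.3 TPM in the other pancreas libraries. GSTA3, a steroid isomerase, reached 33.9 and 46.9 TPM in the sublingual libraries of animals 1 and 5 and 1.02 to 2.58 TPM in the other 4, and its submandibular values were likewise highest in animals 5 and 1, at 42.6 and 19.8 TPM against 1.55 to 6.97 TPM. The highest sublingual values of AKR1B1 and GSTA3 were both in animal 5, whose library also had the highest muscle markers of this tissue, and the part of muscle was not tested.

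In the pancreas library of animal 4, 37 of 61 tested members had their highest level of the 6 animals (60.7%, against 66.1% of all genes tested) and 7 their lowest (11.5% against 8.1%). In its submandibular library 49 had their highest level (80.3% against 87.5% of all genes) and 2 their lowest (3.3% against 5.5%). The members at their lowest in that pancreas library were ADH1A, ALDH1L2, ALDH6A1, GSTA1, SULT1C4, UGT2B7 and UGT2B9*2. MGST1, a membrane-bound transferase, was at 921 TPM in that pancreas library against 24.0 to 70.1 TPM in the other 5, and at 599 TPM in that submandibular library against 9.58 to 31.0 TPM. GSTP1 was at 973 TPM against 131 to 275 TPM in pancreas and at 889 TPM against 57.6 to 108 TPM in submandibular gland. ADH1B was at 263 TPM against 40.0 to 201 TPM, and at 462 TPM against 12.6 to 37.0 TPM. GSTM5 was at 472 TPM against 97.7 to 191 TPM, and at 796 TPM against 42.0 to 85.0 TPM. ALDH3A1 was at 271 TPM in the submandibular library against 0.944 to 4.20 TPM in the other 5. The squamous list summed there to 585 TPM, against 13.5 to 131 TPM, while markers of adipocytes, blood (5844 TPM against 29.7 to 153 TPM) and fibroblasts (4393 TPM against 19.5 to 53.7 TPM) were far higher than in the other 5. The part of these cell types in the members' levels was not tested.

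**Figure D5:**
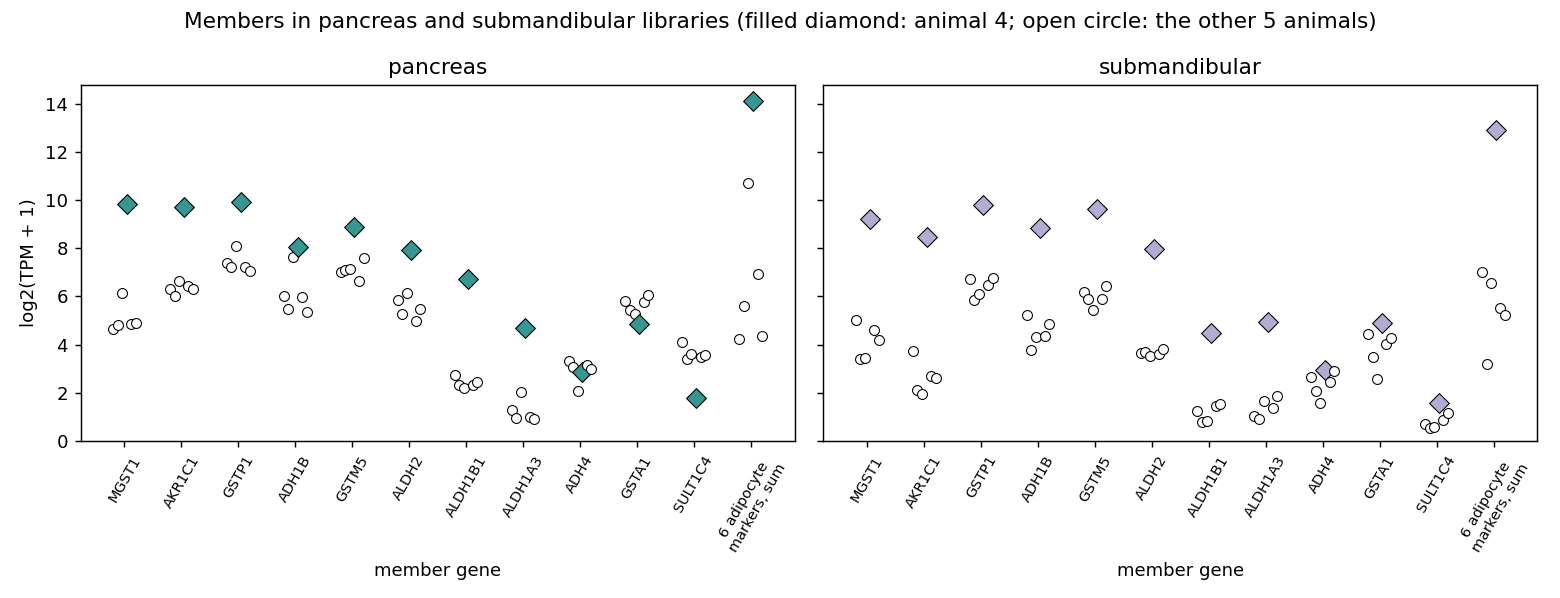
Level of 11 members and of the sum of 6 adipocyte markers in the pancreas and submandibular libraries, 1 point per animal, on a log2(TPM + 1) axis, with animal 4 as a filled diamond. Animal 4 lies above the other 5 animals in both tissues for MGST1, AKR1C1, GSTP1, ADH1B, GSTM5, ALDH2, ALDH1B1 and ALDH1A3, as it does for the adipocyte sum (18013 and 7840 TPM). For ADH4, GSTA1 and SULT1C4 it lies above them in submandibular gland and not in pancreas.

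Glands and pancreas differed in fewer members. In parotid 1 member was higher than in pancreas and 15 were lower, beside 2.24% and 13.6% of all genes. In submandibular gland 0 were higher and 8 lower, beside 2.25% and 7.46%. In sublingual gland 8 were higher and 6 lower, beside 10.4% and 3.51%. The median log2 fold change of the members was -0.64, -0.49 and -0.01 in these 3 comparisons, and that of all genes -0.48, -0.33 and 0.23. With trimmed-mean scaling the splits were 6 and 11, 5 and 8, and 9 and 12, so the balance of higher and lower members depended on the scaling. The shares of all genes were then 7.33% and 9.39%, 7.87% and 8.15%, and 11% and 10.6%. Without the 3 libraries of animals 4 and 6 that stood apart in pancreas, submandibular gland and parotid, the splits were 3 and 21, 0 and 22, and 17 and 7. Of all genes, 3.34% and 24.8%, 4.03% and 30.9%, and 32% and 5.76% were then higher and lower, so the whole table moved too. Without the sublingual libraries of animals 1 and 4, 4 members were higher and 6 lower in sublingual gland, beside 9.32% and 2.85% of all genes.

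Lower in all 3 glands than in pancreas were SULT1C4, GSTA1, GSTA2 and UGT2B7. SULT1C4 fell by 2.72 in parotid (SE 0.38, limma adjusted p = 9.4e-06), by 2.44 in submandibular gland and by 1.19 in sublingual gland. GSTA1 fell by 1.61, 1.59 and 1.11. GSTA2, a close relative of GSTA1, ranged from 1.24 to 17.9 TPM in pancreas and was at most 4.03 TPM in any gland library. AKR1C1 fell by 3.71 in parotid (SE 0.72, limma adjusted p = 0.000599) and by 3.31 in submandibular gland, in 6 of 6 animals each. In sublingual gland AKR1A1 was higher than in pancreas, at 74.2 to 135 TPM against 24.0 to 63.7 TPM, without overlap (1.37, SE 0.25, limma adjusted p = 0.000279). ALDH1A3 (1.61), GSTM3 (1.499), GSTP1 (1.27), ALDH3B1 (1.12) and GSTO1 (0.97) were also higher in sublingual gland, each in 5 of 6 animals. ADH7 and ALDH3A1 were called higher there too. Their sublingual levels were highest in animals 1 and 4, at 72.8 and 73.1 TPM and at 2473 and 2368 TPM. Without the sublingual libraries of animals 1 and 4, ALDH1A3 (1.61, limma adjusted p = 0.0575) and GSTP1 (1.20, adjusted p = 0.13) were no longer called, as SULT1C4 was not, and without the animal term their adjusted p was 0.068 and 0.218. ALDH1L2 fell by 1.75 there (limma adjusted p = 1.85e-05).

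Between parotid and submandibular gland 0 members passed in limma, beside 0.133% of all genes higher and 0.214% lower in parotid. Between parotid and sublingual gland 2 members were higher in parotid and 21 lower, beside 0.893% and 40.6% of all genes. Between submandibular and sublingual gland 1 was higher in submandibular gland and 17 lower, beside 0.753% and 27.2%. The shares of members lower, 34.4% and 27.9%, were near those of all genes, and with trimmed-mean scaling the splits became 5 and 11 and 8 and 6. In that scaling 6.7% and 10.8%, and 6.42% and 8.43%, of all genes were higher and lower. ALDH1L2 was higher in parotid (1.10) and in submandibular gland (1.42) than in sublingual gland, in 6 of 6 animals, and ALDH18A1 was higher in parotid (0.93, limma adjusted p = 0.0131). The members highest in sublingual gland with the largest differences were ALDH3A1 (-4.11 and -4.18), ADH7 (-2.73 and -2.05), GSTP1 (-2.48 and -2.14) and AKR1E2 (-2.20 and -2.11) in parotid and submandibular gland respectively. Without the sublingual libraries of animals 1 and 4, ALDH3A1 was at -2.31 and -2.39 (limma adjusted p of 0.0468 and 0.0576), ADH7 at -1.42 and -0.74 (adjusted p of 0.0316 and 0.274), and ALDH18A1 at 0.68 (adjusted p = 0.096). GSTP1 was at 249 TPM or more in each sublingual library and at most 198 TPM in each parotid library.

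Other genes of the same pathways were read from lists. The shares of all genes given above apply here too: 23.6% were higher in liver than in pancreas and 53.4% than in parotid. Of 15 tested genes that supply glutathione, sulfate donor or glucuronic acid, 9 were higher in liver than in pancreas and 2 lower, and 11 were higher than in parotid and 1 lower. UGDH, which makes the glucuronic acid donor of the UGT enzymes, averaged 35.6 TPM in liver and 4.66 TPM in pancreas (2.64, limma adjusted p = 1.27e-05). GCLC, the rate-limiting enzyme of glutathione synthesis, averaged 31.4 and 3.55 TPM (2.66). The 2 sulfate donor synthases went opposite ways: PAPSS2 was higher in liver than in pancreas (25.0 against 6.70 TPM, 1.74) and PAPSS1 lower (0.869 against 6.47 TPM, -1.94). Of 14 other conjugating enzymes, such as the acyltransferases GLYAT and BAAT and the methyltransferase NNMT, 10 were higher in liver than in pancreas and 1, UGT8, lower. Of 22 other oxidising, reducing and hydrolysing enzymes 18 were higher and 0 lower, with a median log2 fold change of 4.00. Of 9 regulators, 8 were higher in liver than in pancreas and 9 than in parotid, with NR1I2, the pregnane X receptor, at 53.3 TPM in liver and 1.30 TPM in pancreas. KEAP1 and NFE2L2, the sensor and the factor of the response to electrophiles, differed least between liver and sublingual gland, at 0.67 and -0.11, neither past the threshold.

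In liver the 2 males were compared with the 4 females. No member passed (0 of 61, lowest limma adjusted p = 0.446), where 0.059% of all genes did. At an unadjusted limma p below 0.05 there were 9 members, and 1267 of all genes. The groups did not overlap in 10 members, all higher in males (16.4% of 61), where 8.88% of all genes were higher without overlap and 9.75% lower. GSTA2 averaged 233 TPM in males and 47.6 TPM in females (2.43, SE 0.56, unadjusted p = 0.00272), and UGT2B7 136 and 52.0 TPM (1.44, SE 0.36, unadjusted p = 0.00448). With 2 males the spread among them is poorly known.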

How the data were processed

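The authors deposited 1 table of TPM values for 21292 gene names and 30 libraries. Per the submitters' processing notes kallisto, HISAT2, featureCounts and DESeq2 were among the tools used; which of them made the table, with which version, genome build and transcriptome, is not given in the sources used here. Reads were paired and 150 bases long, per the labels' protocols. Depth is unknown, so no interval or detection floor is given. TPM values are shares of a fixed total, and the comparisons therefore also depend on the scaling. There were 0 unused columns.

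From these values, log2(TPM + 1) was fitted with limma 3.58.1 in R 4.3.3 (variance trend, tissue and animal as terms, all 30 libraries), for the 13550 genes that reached 1 TPM in 6 or more libraries. A fold change on this scale understates the change of low genes. P-values are two-sided, adjusted by the Benjamini-Hochberg method over all genes within each comparison, with a threshold of 0.05. Liver of males and females was compared in the 6 liver libraries. The fit was also run on simulated normal values, with changes put into a small part of the genes in liver. The simulation held no libraries that stood apart and no fixed total, so it does not bear on these features of the data. The animal numbers pair libraries of the same animal, per the labels. Library deviations from the tissue mean correlated with a mean r of 0.161 within animals (60 pairs) and -0.0186 between animals (300 pairs).

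The members, pathway lists and marker lists were chosen with earlier results of these data known. Described by name were, in each family, the 3 members with the highest mean TPM in any tissue, every member of at least 10 TPM whose highest tissue was not liver, and in liver against each tissue the 6 largest changes in each direction past the threshold, 31 members in all. Others, such as AKR1C2, AKR7L, GSTM2, GSTA2, ALDH3B2 and AKR1A1, were named after their values were seen. Neighbours and names came from a RefSeq gene table (assembly T2T-MMU8v2.0), where 61 of 63 members were found. No sequence is shown, and a planned promoter search was not run, because no sequence table of this species was used here.

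Alternatives were no animal term, only the 12 libraries of each pair of tissues, a pseudocount of 0.1, no filter, a filter of 5 TPM, trimmed-mean scaling (30% of log ratios and 5% of mean levels trimmed), quantile normalization, leaving out each animal, and leaving out the pancreas and submandibular libraries of animal 4 with the parotid library of animal 6. Leaving out the sublingual libraries of animals 1 and 4, or all 5 libraries, was added once the values were known.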

Additional observations from a re-analysis of the deposited data

Results flagged for a closer look

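In a group of 6 libraries, a single value was listed here when its gap to the nearest other value exceeded Dixon's critical share of the group's range. This was done for the 31 members described by name in each of the 5 tissues, 155 sets of 6, of which 26 held such a value. Chance gives about 7.75 for independent sets of normally spread values, and sets that share a library need not be independent. Of the 26, 13 were in the submandibular and 5 in the pancreas library of animal 4.

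In the submandibular library of animal 4 the isolated high values were GSTM5 (796 TPM, next 85.0 TPM), ADH1B (462 TPM, next 37.0 TPM), ALDH3A1 (271 TPM, next 4.20 TPM), ALDH2 (253 TPM, next 13.3 TPM), AKR1C1 (358 TPM, next 12.5 TPM), ADH7 (18.1 TPM, next 0.725 TPM), AKR1B1 (46.3 TPM, next 1.72 TPM), AKR1E2 (43.2 TPM, next 8.44 TPM), ALDH1A3 (29.2 TPM, next 2.68 TPM), ALDH3B1 (22.8 TPM, next 6.42 TPM), GSTM3 (53.0 TPM, next 7.40 TPM), GSTP1 (889 TPM, next 108 TPM) and MGST3 (260 TPM, next 20.5 TPM). In the pancreas library of animal 4, AKR1C1 (834 TPM, next 99.7 TPM), ALDH1A3 (24.4 TPM, next 3.12 TPM), GSTM3 (22.7 TPM, next 4.75 TPM) and GSTP1 (973 TPM, next 275 TPM) were isolated high and SULT1C4 (2.44 TPM, next 9.62 TPM) isolated low. Of all genes tested, 87.5% were highest in animal 4 in submandibular gland and 66.1% in pancreas. Both libraries had high adipocyte, blood and fibroblast markers, whose part in these values was not tested.

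In the parotid library of animal 6, which was rich in muscle markers, ALDH2 (68.9 TPM, next 20.0 TPM) and MGST3 (103 TPM, next 22.0 TPM) were isolated high. In liver, GSTM3 was isolated high in animal 2 (12.02 TPM, next 2.85 TPM) and SULT1C4 isolated low in animal 4 (17.4 TPM, next 62.4 TPM). In the pancreas library of animal 3, UGT1A1 (1.22 TPM, next 2.33 TPM) and ADH6 (0.533 TPM, next 1.28 TPM) were isolated low. ADH7 was isolated high in the parotid library of animal 4 (0.883 TPM, next 0.412 TPM) and ADH1B isolated low in the sublingual library of animal 2 (18.1 TPM, next 26.9 TPM).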

How the results depend on the processing

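Counts of members higher and lower kept within 1.5 times their value in most settings. Over all counts and alternatives this held in 253 cases and failed in 69. Without the replicate block (the animal term) all counts stayed within it. With at least 5 TPM required, 1 member was lower in liver than in pancreas, 1 higher in parotid and 0 higher in submandibular gland than in sublingual gland. Of all genes, 5.8, 0.901 and 0.925% were called in these ways. Without a filter, 3 were lower in liver than in submandibular gland (3.9% of all genes). With only the 12 libraries of 2 tissues, 3 were lower in liver than in submandibular gland (4.99% of all genes). In this setting 0 were higher in parotid and 18 lower in submandibular gland than in pancreas, 3 were higher in sublingual gland than in pancreas, and against sublingual gland 1 was higher in parotid and 4 lower in submandibular gland. The shares of all genes were 2.33, 14.7, 5.23, 0.708 and 4.61% in these 12-library fits. With trimmed-mean scaling, 4 were lower in liver than in pancreas; against pancreas 6 were higher in parotid, 5 higher in submandibular gland and 12 lower in sublingual gland; against sublingual gland 5 were higher and 11 lower in parotid and 8 higher and 6 lower in submandibular gland. With quantile normalization these counts were 6, 6, 6, 15, 6, 10, 8 and 6. In the same order, trimmed-mean scaling called 16, 7.33, 7.87, 10.6, 6.7, 10.8, 6.42 and 8.43% of all genes. Quantile normalization called 21.9, 9.15, 9.41, 12.5, 9.54, 8.43, 8.85 and 7.61% of them. Without the pancreas and submandibular libraries of animal 4 and the parotid library of animal 6, parotid had 3 higher and submandibular gland 22 lower than pancreas, sublingual gland 17 higher, and against sublingual gland 32 were lower in parotid and 30 in submandibular gland. Of all genes, 3.34, 30.9, 32, 68.1 and 68.6% were called in the same ways. Without the sublingual libraries of animals 1 and 4, 3 were lower in liver than in sublingual gland, 4 higher in sublingual gland than in pancreas, and 1 higher in parotid than in sublingual gland. Of all genes, 12, 9.32 and 0.664% were called in these ways. Without all 5 libraries, against pancreas parotid had 3 higher and 23 lower, submandibular gland 2 higher and 24 lower, and sublingual gland 13 higher and 10 lower, and 28 were lower in submandibular than in sublingual gland. The shares of all genes were here 3.55% and 28.1%, 4.67% and 33.7%, 24.5% and 5.3%, and 62.1%. The cause of these shifts was not tested.

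Leaving out 1 animal at a time gave these ranges. Liver had 3 to 4 members lower than submandibular gland and 4 to 8 lower than sublingual gland. Parotid had 0 to 2 higher and 7 to 21 lower than pancreas, submandibular gland 0 to 1 higher and 5 to 21 lower, and sublingual gland 2 to 16 higher and 3 to 8 lower. Against sublingual gland, parotid had 1 to 2 higher and submandibular gland 4 to 29 lower. In the same order, the shares of all genes were 4.36 to 5.61% and 9.59 to 15.9% for liver. Against pancreas they were 1.35 to 3.08% and 5.37 to 18% for parotid and 1.45 to 3.87% and 3.15 to 25.2% for submandibular gland. For sublingual gland against pancreas they were 5.64 to 26.6% and 2.44 to 4.97%. The last 2 ranges, against sublingual gland, were 0.627 to 0.996% and 9.08 to 64.5%. Without animal 4 the counts of 8 higher in sublingual gland and 8 lower in submandibular gland than pancreas became 16 and 21, and that of 17 lower in submandibular than in sublingual gland became 29. The shares of all genes rose as well, from 10.4, 7.46 and 27.2% to 26.6, 25.2 and 64.5%.

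Of the members described by name, SULT2B1 in liver against sublingual gland turned to 0.14 without the sublingual libraries of animals 1 and 4 and to 0.18 without all 5, MGST3 to 0.12 without animal 1 and to 0.11 without all 5, and AKR1E2 to 0.024 without animal 6. Leaving out 1 animal gave -0.31 to 0.12 for MGST3 and -0.38 to 0.024 for AKR1E2, and none of these passed the threshold in any of these fits. For named members in single comparisons, direction and side of the threshold were kept in 457 cases, a call was lost in 21 and gained in 10. TPM gives no depth, so low members such as SULT1B1 and ALDH3B2 carry an unknown counting error, and 2 males and 6 animals limit the precision.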

Other observations

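Members also varied between livers. The 6 UGT members summed to 239, 1104, 239, 246, 798 and 1003 TPM in the livers of animals 1 to 6, and MGST1 was at 398, 1402, 257, 194, 1178 and 1498 TPM. Mitochondrially encoded genes took 24.7, 10.5, 19.6, 21.6, 17.0 and 13.8% of the same libraries. GSTP1 was at 516, 61.2, 95.02, 564, 380 and 377 TPM in those livers, in another order than MGST1. Whether the mitochondrial share has a part in these levels was not tested.

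In the parotid library of animal 6, where skeletal muscle markers summed to 78752 TPM, AKR1B1 was at 42.7 TPM where the other 5 ranged from 1.19 to 7.62 TPM, and GSTM2 at 88.8 TPM, where they ranged from 4.33 to 15.4 TPM. The part of muscle in these levels was not tested.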
